A study of Homo sapiens with 6 samples.

Results

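The unfolded protein response and the integrated stress response were followed through 38 genes in growing and in RASv12-expressing WI-38 fibroblasts. The genes were chosen by name for their roles in these pathways. Each was read from the probe set annotated to its current symbol that was brightest over all 6 arrays. Of the 38 genes, 37 had such a probe set, out of 11963 genes measured in all, and DNAJB11 was not analysed here. WI-38 is a diploid fibroblast strain from human fetal lung. One group of 3 samples held growing cells labelled wild type, and the other group of 3 held cells labelled senescent, with overexpression of RASv12, a RAS protein locked in its active state. Both groups share the WI-38 background and culture at 3% oxygen. The gene was brought in by a retrovirus, and the labels leave unstated which RAS gene it was, its promoter, and whether control cells took an empty vector, so infection and RASv12 cannot be told apart. The labels give Cy5 for every control sample and Cy3 for every RASv12 sample, so the effect of dye, if dyes were used, cannot be told apart from that of RASv12. Separate cultures are not named, so p-values measure only how far these samples scatter, and that scatter may be technical.

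The unfolded protein response is set off when unfolded proteins build up in the endoplasmic reticulum (ER). Its sensors are IRE1 (gene ERN1), which splices XBP1 mRNA, PERK (gene EIF2AK3), which phosphorylates the initiation factor eIF2, and ATF6, which is cut in the Golgi to release a transcription factor. Spliced XBP1 and cleaved ATF6 raise ER chaperones and the machinery of ER-associated degradation. Phosphorylated eIF2 slows most translation but favours that of ATF4, a transcription factor that raises stress effectors such as CHOP (gene DDIT3) and enzymes of amino acid supply. That second branch is also reached through other eIF2 kinases and is called the integrated stress response. Secretory fibroblasts depend on both, since collagen is folded and processed in the ER.

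The promoters of some of these genes carry known response elements. Short stretches are shown for some members that held a match and changed in RASv12 cells, with the matching letters in capitals. The ER stress element was searched as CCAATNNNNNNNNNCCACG, the ER stress element II as ATTGGNCCACG and the core of the amino acid response element as TGATGNAA. Each was searched on both strands of the 250 bases before the start of a gene, in RefSeq promoters of build GRCh38.p14. The first 2 elements share the letters CCACG but no match of one is a match of the other. Promoters were found for 35 of the 38 members.
HSPA5, ER stress element, chr9:125241346-125241454, minus strand: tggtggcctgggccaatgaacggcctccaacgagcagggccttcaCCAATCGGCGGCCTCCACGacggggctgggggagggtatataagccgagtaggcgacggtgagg
CRELD2, ER stress element on the reverse strand, chr22:49918509-49918617, plus strand: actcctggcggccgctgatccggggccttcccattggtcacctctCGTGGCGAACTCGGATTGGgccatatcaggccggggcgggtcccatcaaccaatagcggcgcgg
SDF2L1, ER stress element II on the reverse strand, chr22:21642069-21642169, plus strand: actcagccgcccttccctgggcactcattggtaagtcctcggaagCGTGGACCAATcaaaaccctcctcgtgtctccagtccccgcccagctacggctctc
ASNS, amino acid response core, chr7:97872424-97872521, minus strand: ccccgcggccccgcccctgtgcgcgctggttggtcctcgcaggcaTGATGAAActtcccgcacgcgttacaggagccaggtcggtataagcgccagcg
CHAC1, amino acid response core on the reverse strand, chr15:40953221-40953314, plus strand: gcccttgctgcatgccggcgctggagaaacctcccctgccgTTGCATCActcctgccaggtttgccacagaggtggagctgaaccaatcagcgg

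The ER stress element was present in 26 of 35116 promoters (0.0740%). These belonged to 25 of 27305 genes, 7 of which are members: XBP1, HSPA5, HSP90B1, CALR, CANX, PDIA6 and CRELD2. In the HSPA5 promoter the element began 66 bases before the gene start, and in that of CRELD2 80 bases before it. The ER stress element II was present in 18 promoters (0.0513%), among them those of HYOU1, which held 2 matches, SDF2L1 and HERPUD1. The amino acid response core is shorter and was present in 1104 promoters (3.14%), including those of ASNS, 68 bases before the start, CHAC1, 209 bases before it, and HERPUD1. No match to any of these elements was found for TRIB3, DNAJB9, PPP1R15A, EDEM1, MANF, PHGDH or PSAT1, and not every member had a promoter to search. A match is a description of the letters in this window and does not show that a factor binds there.

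In RASv12 cells the branches of the response did not move as one. Of 37 members, 10 rose (27.0%, against 13.9% of all genes) and 7 fell (18.9%, against 15.5% of all genes), so 45.9% changed against 29.4% of all genes. These shares are not like for like. The members were chosen with earlier results of these data known, and 33 of the 37 lay outside the dimmest 50% of genes. The pseudokinase gene TRIB3 and the eIF2 phosphatase subunit PPP1R15A rose, with a small set of chaperones led by DNAJB9. The enzymes that make serine and asparagine, PHGDH, PSAT1 and ASNS, fell. HSPA5, the central ER chaperone, rose by less, and the other abundant chaperones and the disulfide isomerases of the ER did not pass the test. A change here is a difference of group means on log2(intensity + 16) after quantile normalization, RASv12 minus control, given with its standard error (SE), and it passes at an adjusted p under 0.05. The median change was 0.062 over the 37 members and 0.020 over all genes.

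**Figure D1:**
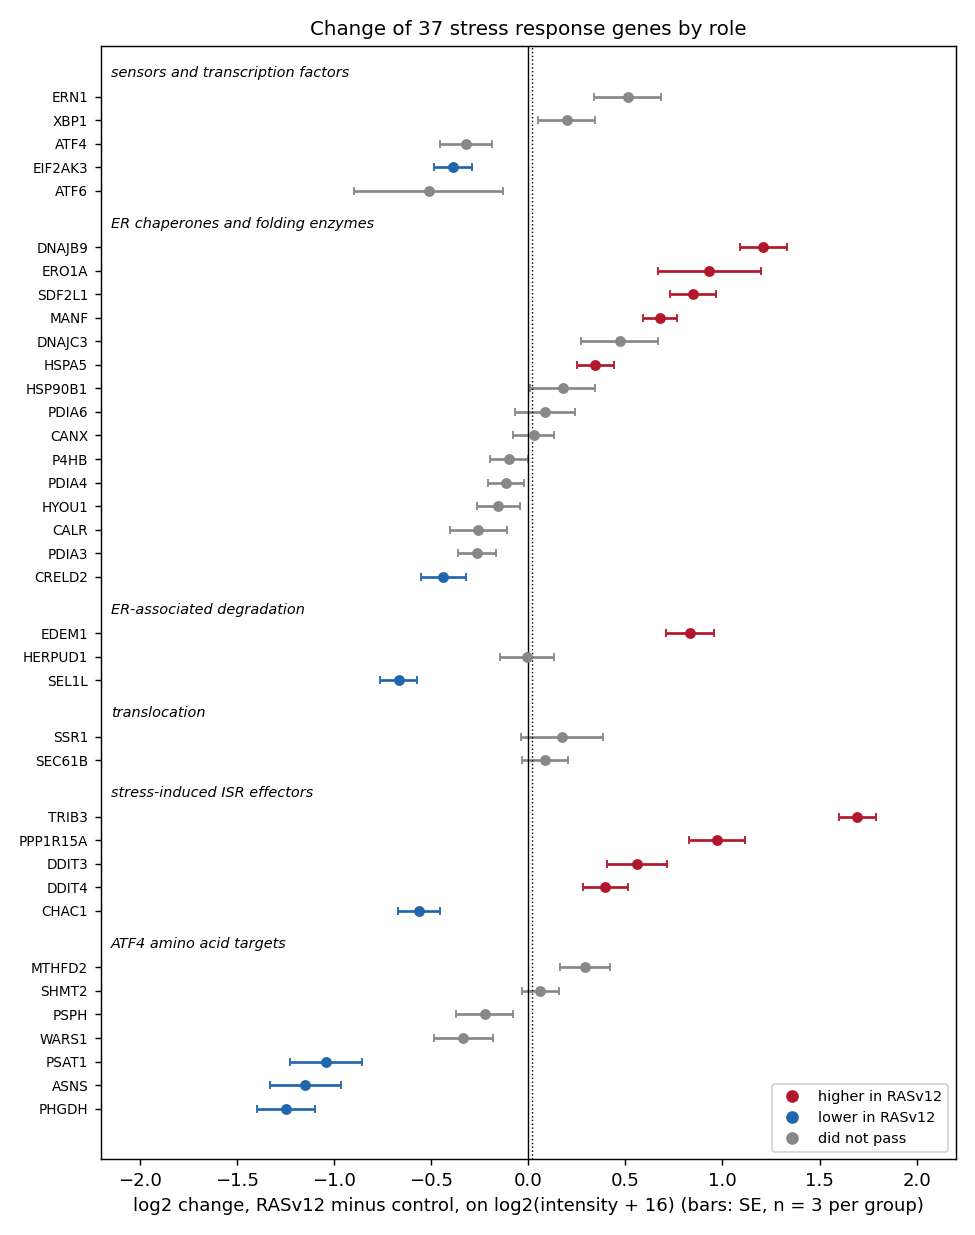
Log2 change (RASv12 minus control, with SE, 3 arrays per group) of the 37 measured members, grouped by role, with genes that passed the test in red (higher) or blue (lower) and the median of all genes as a dotted line. TRIB3 lies highest at 1.69 and PHGDH lowest at -1.25, while most chaperones lie near 0.

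These counts depend on how the arrays are scaled. The 18 hybridization control probe sets, which read RNA added in a fixed amount, were all lower on RASv12 arrays, by a mean of 0.34 on the log2 scale. When arrays were scaled to them, 18 of 37 members were called higher, against 23.6% of all genes, and 3 of 37 lower, against 8.70% of all genes. The share of members called lower was thus no larger than that of all genes. The 3 were ASNS, PHGDH and PSAT1. Under that scaling the median of all genes moved to 0.20, and CHAC1, SEL1L, CRELD2 and EIF2AK3 lost their calls as lower. Leaving out control replicate 1, control replicate 3 or RASv12 replicate 2 left 6 members called higher each time.

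**Figure D2:**
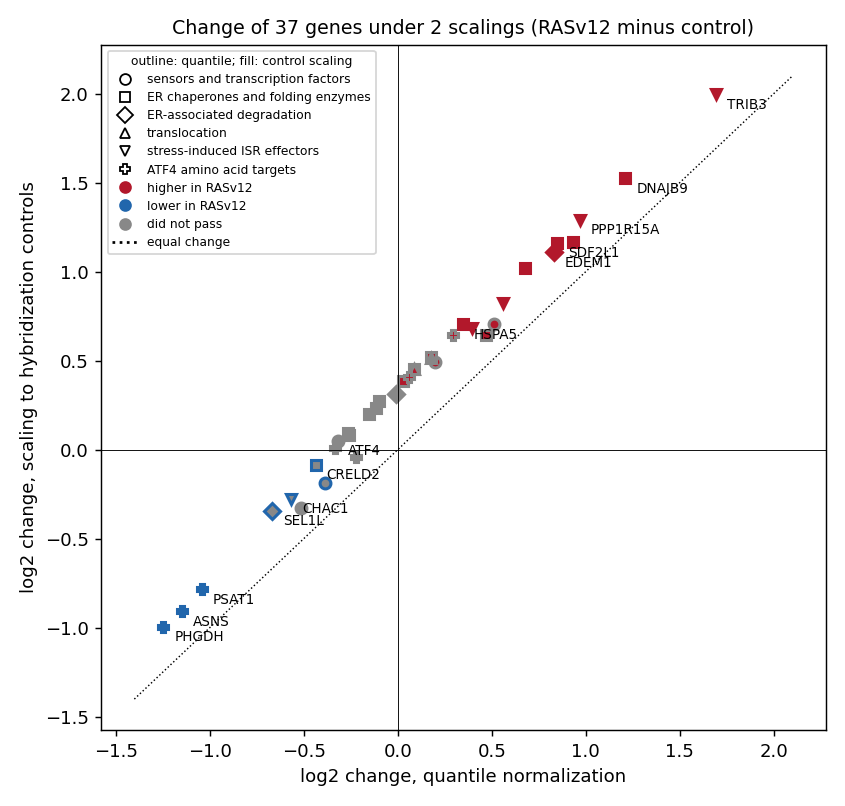
Log2 change of each of the 37 members under quantile normalization (x axis, outline colour) and under scaling to the hybridization controls (y axis, fill colour), with symbols for role and a dotted line of equal change. Every member lies above the line, and the genes for asparagine and serine synthesis stay lower under both.

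Among the 5 transcripts of the sensors and their transcription factors, 1 fell (20%, against 15.5% of all genes) and none rose. Their changes ran from -0.51 for ATF6 to 0.51 for ERN1, and 4 did not pass the test. EIF2AK3, which encodes PERK, gave intensities of 45.6, 39.4 and 42.3 in the control samples, listed by replicate number as throughout, and of 26.8, 27.8 and 28.6 in the RASv12 samples. All 3 RASv12 values lay below the control values, and the gene fell by 0.39 on the log2 scale (SE 0.10, adjusted p = 0.024). The mean of its RASv12 values lay under 27.98, the brightest intensity of 27 control probe sets for bacterial transcripts. With dimmer RASv12 values raised to 27.98, the deposited intensities, before quantile normalization, were 1.50-fold lower in RASv12 cells. Scaled to the hybridization controls, EIF2AK3 lay at -0.18 and was not called (adjusted p = 0.22). Its call was lost without control replicate 1 or 3 (adjusted p = 0.069 and 0.073) and without RASv12 replicate 2 or 3 (0.066 and 0.060). ATF4 is regulated mainly through translation, so its mRNA does not report its activity. Its intensities were 901, 937 and 1031 in control cells and 708, 753 and 895 in RASv12 cells. The groups did not overlap, but the change of -0.32 (SE 0.14) did not pass (adjusted p = 0.13), and without RASv12 replicate 3 it did, at -0.44 (adjusted p = 0.038). Scaled to the hybridization controls, ATF4 lay at 0.049.

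XBP1, whose mRNA is spliced by IRE1, had intensities of 164, 119 and 142 in control cells and 145, 184 and 159.9 in RASv12 cells. These overlap, with a change of 0.20 (SE 0.15, adjusted p = 0.37), and whether the probe set separates the spliced form was not tested. Scaled to the hybridization controls, XBP1 was called higher at 0.49 (adjusted p = 0.043). ERN1, which encodes IRE1, was dim, at 31.1, 16.5 and 29.6 in control cells and 28.6, 48.5 and 49.6 in RASv12 cells. The groups overlapped, and the control mean lay under the brightest bacterial control. With dimmer control values raised to that control, the deposited intensities were 1.39-fold higher in RASv12 cells. ERN1 did not pass (adjusted p = 0.065), but was called without RASv12 replicate 1 (adjusted p = 0.034) and under hybridization control scaling (adjusted p = 0.045). ATF6 was the most variable of the 5, with RASv12 intensities of 16.3, 55.5 and 94.1 beside control intensities of 96.2, 73.4 and 71.6, and a change of -0.51 (SE 0.38, adjusted p = 0.38).

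Of the 15 measured ER chaperones and folding enzymes, 5 rose (33.3%, against 13.9% of all genes) and 1 fell (6.67%, against 15.5%). The other 9 did not pass. The median of the list was 0.086. DNAJB9 is a J-domain co-chaperone of the ER Hsp70 protein and a known target of spliced XBP1. Its intensities were 140.5, 118 and 124 in control cells and 286, 348 and 317 in RASv12 cells. All RASv12 values lay well above the control values, and it rose by 1.21 ± 0.12 (SE, adjusted p = 4.1e-04). Its other probe set was called at 0.88 (adjusted p = 0.0027). That probe set was dim, with control intensities of 11.5, 13.8 and 10.7, all within the range of the bacterial controls. SDF2L1, a stress-induced partner of the ER Hsp70 protein, had intensities of 134, 161 and 151 in control cells and 324, 263 and 259 in RASv12 cells. It rose by 0.85 ± 0.12 with no overlap between groups (adjusted p = 0.0020). MANF, a secreted ER stress protein, had 331, 317 and 329.8 in control cells and 539.6, 563 and 512 in RASv12 cells. That was a rise of 0.68 ± 0.088 (adjusted p = 0.0014), with a narrow spread in both groups.

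HSPA5 encodes the ER Hsp70 protein (BiP), the central chaperone of the compartment and the usual readout of the response. Its intensities were 1246, 1288 and 1189 in control cells and 1633, 1748 and 1457 in RASv12 cells. The groups did not overlap, and the rise of 0.35 ± 0.097 passed narrowly (adjusted p = 0.035). It did not pass without control replicate 1, 2 or 3 (adjusted p = 0.078, 0.064 and 0.11) or without RASv12 replicate 1 or 2 (0.062 and 0.11). ERO1A, the oxidase that supplies disulfide bonds and is also induced by low oxygen, had intensities of 32.1, 72.5 and 63.0 in control cells and 147, 111 and 87.8 in RASv12 cells. Both groups were spread, and it rose by 0.93 ± 0.27 (adjusted p = 0.038). That call ended without control replicate 1 or 3 (adjusted p = 0.0700 and 0.0704) and without RASv12 replicate 1 or 2 (0.095 and 0.097).

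CRELD2, an ER-resident protein that is induced by ER stress in many cells, was the chaperone-list member that fell. Intensities were 532, 488 and 582 in control cells and 460.0, 366 and 369 in RASv12 cells, all lower than in control cells. Its change was -0.44 (SE 0.12, adjusted p = 0.031), and it did not pass without control replicate 1 or 3 (adjusted p = 0.081 and 0.10) or without RASv12 replicate 2 or 3 (0.099 and 0.079). Scaled to the hybridization controls it lay at -0.085, and on the deposited values at -0.41 (adjusted p = 0.053). HSPA5 and CRELD2 share the ER stress element shown above, in opposite orientations.

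The other ER chaperones gave small differences that did not pass. They ran from -0.26 for PDIA3 to 0.18 for HSP90B1, leaving out DNAJC3. The group means of DNAJC3, a J-domain co-chaperone, were 12.5 in control and 23.9 in RASv12 cells, both within the range of the bacterial controls, and give no fold. CANX, the membrane lectin calnexin, had intensities of 1364, 1511 and 1584 in control cells and 1536, 1474 and 1598 in RASv12 cells. These overlapped, with a change of 0.028 (SE 0.11). CALR, its soluble relative calreticulin, was at -0.26 (SE 0.15) and HYOU1, a large ER chaperone of the Hsp70 family, at -0.15 (SE 0.11). The dimmer CALR probe sets were at -0.27 and 0.22 and did not pass. The disulfide isomerases P4HB, PDIA4 and PDIA6 were at -0.10, -0.11 and 0.086. The dimmer PDIA6 probe sets ran from -0.19 to 0.00027 and did not pass. PDIA3, the isomerase that works with both lectins, had intensities of 1034, 968 and 1023 in control cells and 828, 907 and 818 in RASv12 cells, which did not overlap. HSP90B1, the ER Hsp90 protein, was at 0.18 on its brightest probe set, while its dimmer one was called at 1.09 (adjusted p = 0.015). The dimmer one read 29.9, 31.1 and 26.7 in control cells, close to the brightest bacterial control. Both HSP90B1 probe sets, like the brightest ones of CALR and PDIA6, carry the suffix _x_at, which marks probes that may match more than 1 transcript. PDIA4 also had a dimmer probe set that was called, at -0.47 (adjusted p = 0.021). Under hybridization control scaling CANX was called higher at 0.38 (adjusted p = 0.040) and HSP90B1 at 0.52 (adjusted p = 0.0497).

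Degradation genes moved in both directions. EDEM1, a lectin that extracts misfolded glycoproteins for disposal and a known XBP1 target, had intensities of 113, 107 and 85.5 in control cells and 182, 206 and 179 in RASv12 cells. It rose by 0.83 ± 0.12 (adjusted p = 0.0026), with every RASv12 value above every control value. SEL1L, the scaffold of the HRD1 ubiquitin ligase complex, had 308, 282 and 300.3 in control cells and 169.8, 185 and 191 in RASv12 cells. It fell by 0.67 on the log2 scale (SE 0.095, adjusted p = 0.0022), again with no overlap. Its 3 dimmer probe sets ran from -0.11 to 0.24 and did not pass, and the mean of all 4 was not called. HERPUD1, a membrane component of the same complex, had intensities of 207, 288 and 215 in control cells and 231, 239 and 231 in RASv12 cells and a change of -0.0069. The translocation genes SEC61B, a channel subunit, and SSR1, a subunit of the translocon-associated complex, were at 0.087 and 0.18 and did not pass, though hybridization control scaling called SEC61B higher at 0.46 (adjusted p = 0.027). For SSR1, 2 of 3 dimmer probe sets were called higher, at 0.52 and 0.63.

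All 5 effectors of the integrated stress response were called, where 29.4% of all genes were, and 4 rose and 1 fell (median 0.56). The list is short and, like the others, was chosen with earlier results of these data known. TRIB3, a pseudokinase induced by ATF4 and CHOP, had intensities of 113, 101 and 112 in control cells and 399, 367 and 387 in RASv12 cells. The groups were far apart, and the rise of 1.69 ± 0.095 was the largest of the members (adjusted p = 3.0e-05). PPP1R15A encodes GADD34, the subunit that brings a phosphatase to eIF2 and so ends the block on translation. It had intensities of 174, 146 and 148 in control cells and 311, 280.1 and 380.3 in RASv12 cells. That was a rise of 0.97 ± 0.14 (adjusted p = 0.0027), and its other probe set rose by 0.86. Neither gene overlapped between groups.

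DDIT3, which encodes CHOP, had intensities of 90.8, 115 and 104 in control cells and 123, 168 and 178 in RASv12 cells. The lowest RASv12 value was close to the highest control value, and the rise of 0.56 ± 0.15 passed (adjusted p = 0.032). The call was lost without control replicate 1, 2 or 3 (adjusted p = 0.096, 0.052 and 0.083) and without RASv12 replicate 2 or 3 (0.10 and 0.087). DDIT4, an inhibitor of mTORC1 signalling, had 133, 110.4 and 132 in control cells and 157, 184 and 162 in RASv12 cells. It rose by 0.40 ± 0.12 (adjusted p = 0.042), and leaving out any replicate ended the call, with adjusted p from 0.057 without RASv12 replicate 1 to 0.13 without RASv12 replicate 2. The values without control replicates 1, 2 and 3 were 0.062, 0.12 and 0.075, and without RASv12 replicate 3 it was 0.072.

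CHAC1, an enzyme that degrades glutathione and a canonical target of the ATF4 and CHOP branch, went the other way. Its intensities were 205, 177 and 196 in control cells and 134, 122 and 115 in RASv12 cells, so that all RASv12 values were lower. It fell by 0.56 on the log2 scale (SE 0.11, adjusted p = 0.0078), but was not called after scaling to the hybridization controls, at -0.27 (adjusted p = 0.085).

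**Figure D3:**
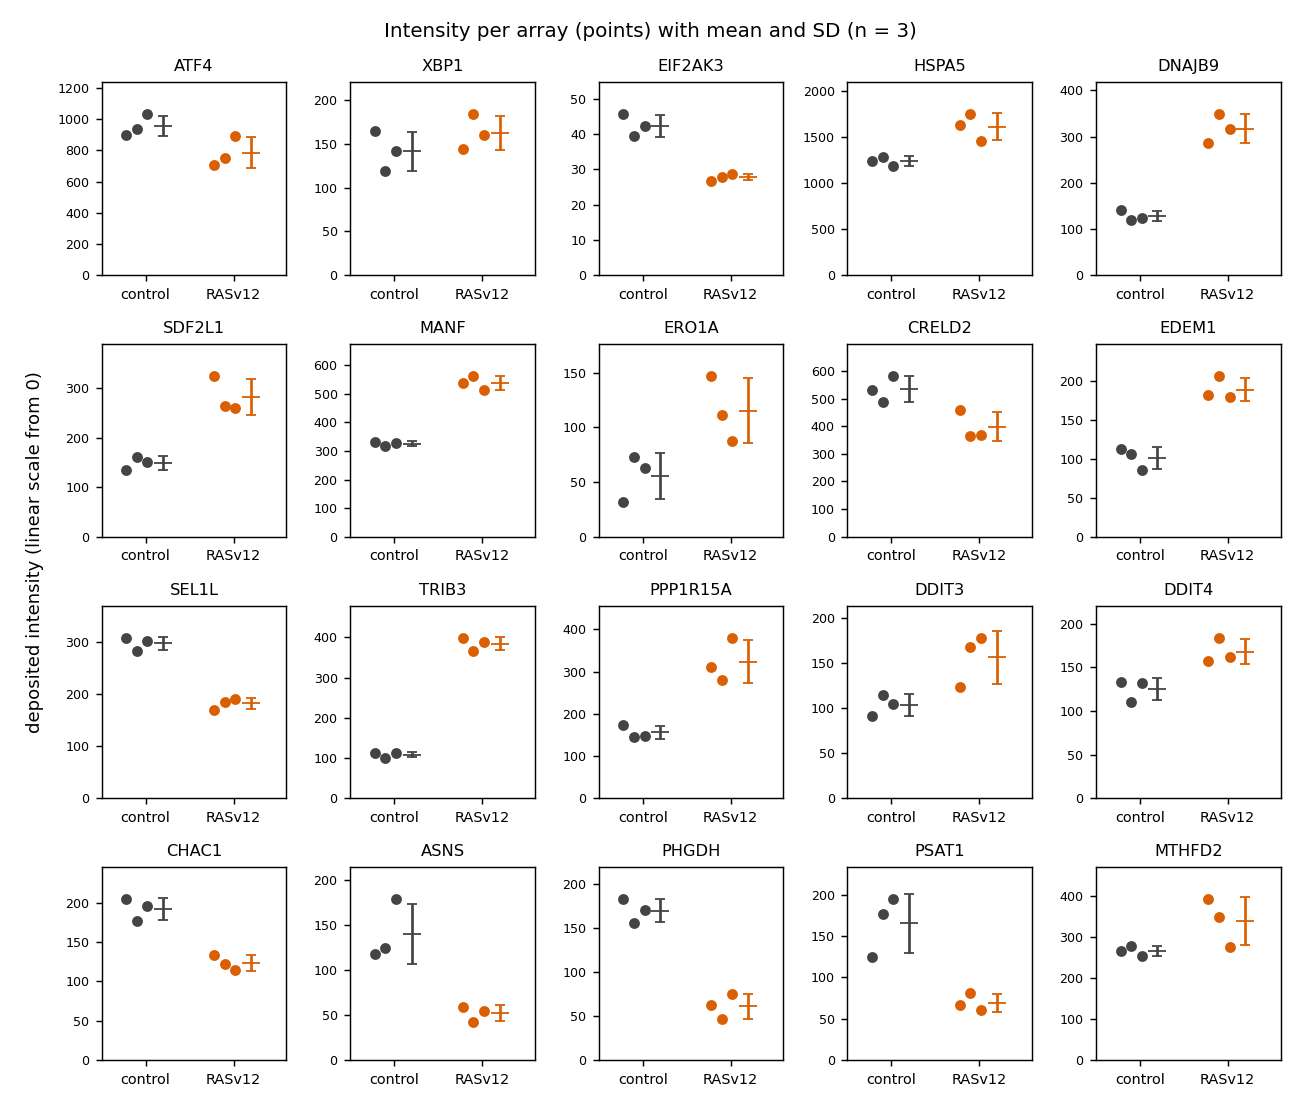
Deposited intensity on each of the 6 arrays (points, linear axes from 0, different for each gene) with the mean and SD of each group, for 20 members. TRIB3, DNAJB9, MANF and SEL1L show groups far apart with a narrow spread, while the groups of XBP1 and MTHFD2 overlap.

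Among the 7 enzymes of amino acid supply that ATF4 induces, 3 fell, none rose and 4 did not pass (median -0.33; without control replicate 2, -0.48). In the limma fit 3 of the 7 had an unadjusted p under 0.05, the same 3, and scaling to the hybridization controls called 2 of the others, MTHFD2 and SHMT2, higher. PHGDH, the first enzyme of serine synthesis from glucose, had intensities of 183, 156 and 171 in control cells and 62.1, 46.5 and 75.1 in RASv12 cells. It fell by 1.25 on the log2 scale (SE 0.15, adjusted p = 9.4e-04). PSAT1, the second enzyme of that route, had 125, 177 and 195 in control cells and 66.9, 81.1 and 60.1 in RASv12 cells and fell by 1.04 (SE 0.18, adjusted p = 0.0057). ASNS, asparagine synthetase, had 117, 124 and 178 in control cells and 59.1, 42.2 and 54.2 in RASv12 cells and fell by 1.15 (SE 0.18, adjusted p = 0.0035). For all 3 genes the highest RASv12 value lay under the lowest control value.

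The remaining enzymes of this group did not pass the test. PSPH, the last enzyme of serine synthesis, lay within the range of the bacterial controls in both groups, at a mean of 24.9 in control cells and 18.9 in RASv12 cells, and gives no fold. SHMT2, the mitochondrial enzyme that takes serine into the folate cycle, had intensities of 460.0, 460.3 and 495 in control cells and 505, 473 and 519 in RASv12 cells. Its change was 0.062 (SE 0.095, adjusted p = 0.69). MTHFD2, which acts next in the mitochondrial folate cycle, had 265, 277 and 253 in control cells and 391, 348 and 276 in RASv12 cells. Its change of 0.29 (SE 0.13, adjusted p = 0.14) was called without RASv12 replicate 3, at 0.41 (adjusted p = 0.035). WARS1, the tryptophan tRNA synthetase, which interferon gamma also induces, was at -0.33 (SE 0.15, adjusted p = 0.15), and at -0.48 without control replicate 2 (adjusted p = 0.047). Its dimmer probe set went the other way, at 0.067, and did not pass.

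Differences between 2 members on the same array do not move with the scaling of that array, apart from the pseudocount. Here 8 pairs were set side by side, chosen after their values were seen, and are given with no test. Log2(TRIB3) minus log2(ASNS) averaged -0.30 ± 0.28 (SD, n = 3) over the control arrays. Over the RASv12 arrays it averaged 2.57 ± 0.13, a shift of 2.87. TRIB3 against CHAC1 shifted by 2.27 and PPP1R15A against PHGDH by 2.26. HSPA5 against CRELD2 shifted by 0.78, EDEM1 against SEL1L by 1.47 and DNAJB9 against the isomerase P4HB by 1.28. SDF2L1 against PDIA4 shifted by 0.94, and MTHFD2 against PHGDH by 1.60. In all 8 pairs the 3 RASv12 values lay above the 3 control values.

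**Figure D4:**
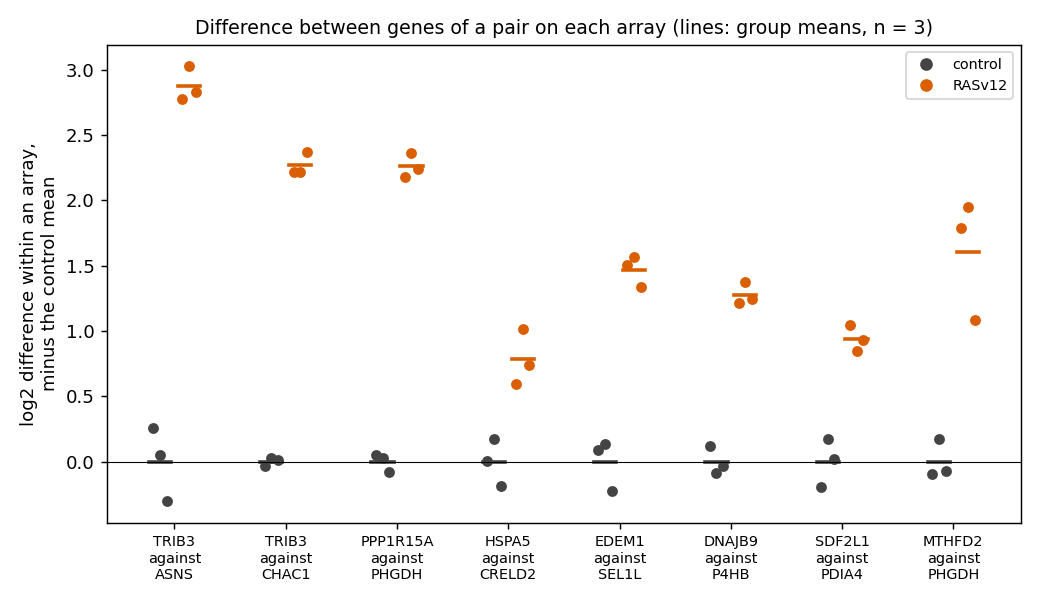
Difference between the log2(intensity + 16) values of 2 members on the same array, minus the mean of the control arrays, for 8 pairs (grey, control; orange, RASv12; lines, means of 3). All RASv12 points lie above the control points, from a shift of 0.78 for HSPA5 against CRELD2 to 2.87 for TRIB3 against ASNS.

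A wider list of 127 pathway genes outside the members was taken by role, and 103 were measured. Of these, 24 rose (23.3%, against 13.9% of all genes) and 19 fell (18.4%, against 15.5%), while 60 did not pass. Their median was 0.044, and when arrays were scaled to the hybridization controls 44 were called higher and 8 lower, where all genes gave 23.6% and 8.70%. Among other transcription factors and their activators, 4 of 12 rose (33.3%) and 4 fell (33.3%). ATF3, a stress-induced partner of ATF4, rose by 1.05 ± 0.15, CEBPB by 0.98 ± 0.090 and CREB3, an ER membrane factor, by 0.40 ± 0.10. NUPR1, a stress-induced chromatin protein and known ATF4 target, had intensities of 424, 345 and 522 in control cells and 81.0, 65.9 and 71.8 in RASv12 cells. It fell by 2.29 on the log2 scale (SE 0.16, adjusted p = 8.7e-05). CREB3L1 and CREB3L2, ER stress transducers that raise collagen secretion, were at -0.83 (SE 0.10) and -0.65 (SE 0.10). CREB3L2 was not called when arrays were scaled to the hybridization controls.

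The amino acid arm was extended by 16 further genes, of which 1 rose (6.25%, against 13.9% of all genes) and 5 fell (31.25%, against 15.5%). SLC7A11, the cystine transporter that feeds glutathione synthesis, had intensities of 679, 609 and 736 in control cells and 78.8, 79.4 and 125 in RASv12 cells. It fell by 2.65 on the log2 scale (SE 0.16, adjusted p = 4.3e-05), the largest fall among the 103 further genes. SLC38A2, a neutral amino acid transporter, had 2109, 2030.2 and 2325 in control cells and 749, 761 and 677 in RASv12 cells and fell by 1.58 (SE 0.094, adjusted p = 3.8e-05). STC2, a secreted glycoprotein induced by ATF4, fell by 1.37 (SE 0.16). SLC7A5, the large neutral amino acid transporter, was the gene that rose, from 93.2, 82.5 and 80.4 to 163, 162 and 183, by 0.91 ± 0.10 (adjusted p = 7.0e-04). These 4 were also called in the same direction under hybridization control scaling.

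Among 15 tRNA synthetases 4 rose (26.7%, against 13.9% of all genes) and 1 fell (6.67%, against 15.5%). The rises were led by HARS1 (0.82 ± 0.090), TARS1 (0.61 ± 0.10) and FARSA (0.94 ± 0.18), and VARS1 was at -0.50 (SE 0.10), which hybridization control scaling did not call. Of 11 genes for eIF2, its kinases and its exchange factor eIF2B, 4 rose (36.4%, against 13.9% of all genes) and none fell. By unadjusted p under 0.05 none fell either. EIF2B3 rose by 0.72 ± 0.11, EIF2S1, the subunit that is phosphorylated under stress, by 0.58 ± 0.12, and EIF2B4 by 0.37 ± 0.086.

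Of 19 other ER folding factors, 5 rose (26.3%, against 13.9% of all genes) and 5 fell (26.3%, against 15.5%). DNAJC10, a disulfide reductase with a J domain, rose by 0.89 ± 0.17, the lectin CLGN by 1.02 ± 0.20 and ERP44, which retains secretory cargo, by 0.46 ± 0.092. SERPINH1, the collagen chaperone HSP47, fell from 1511, 1603 and 1743 to 771, 745 and 648, by 1.19 on the log2 scale (SE 0.0995, adjusted p = 1.9e-04). FKBP9, a prolyl isomerase of the ER, was at -1.29 (SE 0.12) and the cyclophilin PPIC at -0.64 (SE 0.10), and PPIC was not called under hybridization control scaling. Collagen genes were lower on the same arrays, with 9 of 10 fibroblast markers called lower, COL1A1 and COL3A1 among them, and their part in these results was not tested.

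In the degradation list 3 of 13 rose (23.1%) and 2 fell (15.4%), and in the translocation list 3 of 17 rose (17.6%) and 2 fell (11.8%). Of all genes, 13.9% rose and 15.5% fell, close to the translocation shares and to the share of degradation genes that fell. EDEM3, a relative of EDEM1, rose by 1.12 ± 0.20, UFD1, which helps pull proteins out of the membrane, by 0.46 ± 0.091 and FAF2 by 0.48 ± 0.15. OS9, a lectin that hands glycoproteins to SEL1L, was at -0.72 (SE 0.15) and UBXN4 at -0.38 (SE 0.11), and neither was called under hybridization control scaling. SRPRB, a subunit of the receptor for the signal recognition particle, rose by 0.67 ± 0.086, SSR3 by 0.57 ± 0.13 and SEC62 by 0.32 ± 0.099. TRAM1, which helps chains into the membrane channel, was at -0.99 (SE 0.12), and SRP9 at -0.44 (SE 0.14), which that scaling did not call either.

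**Figure D5:**
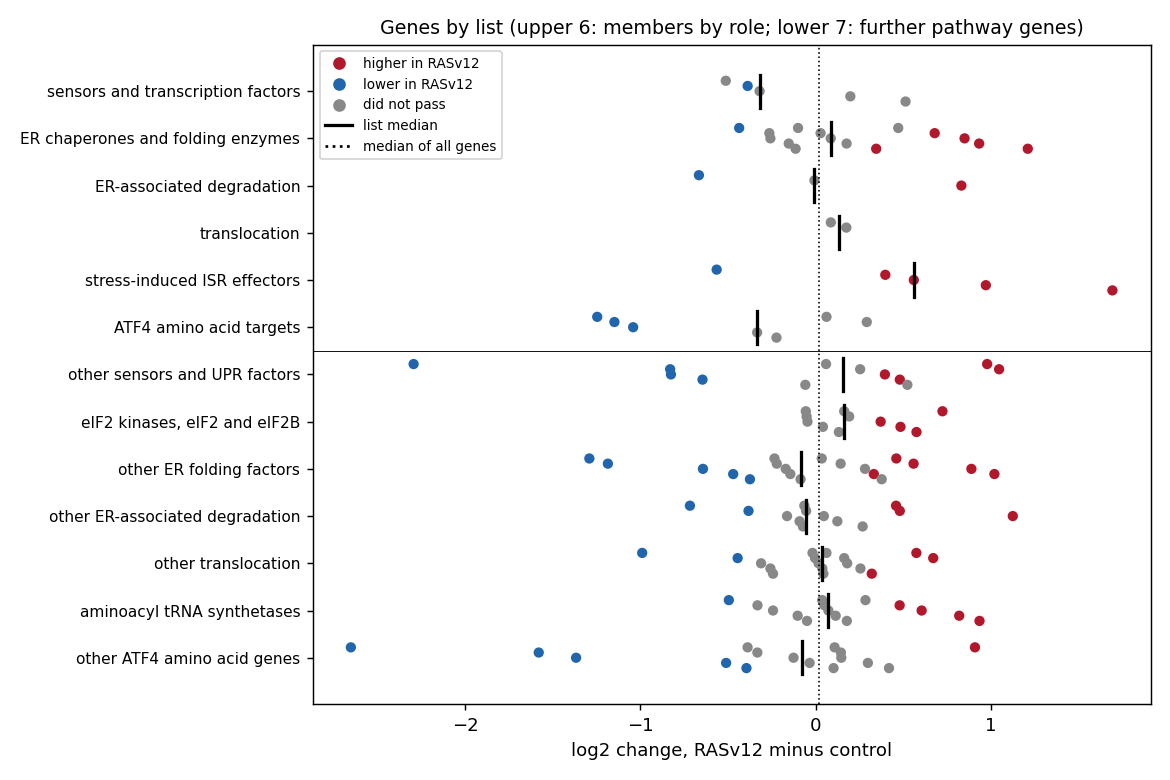
Log2 change (RASv12 minus control) of each measured gene in the 6 role groups of members (upper rows) and the 7 further pathway lists (lower rows), with list medians as black bars and the median of all genes as a dotted line. The widest spread is in the further ATF4 amino acid genes, from -2.65 for SLC7A11 to 0.91 for SLC7A5.

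Genes on the array that hold the same promoter elements were called in both directions. The 14 measured genes with an ER stress element in the window include 7 members described above. Of these 14, 3 were called higher (HSPA5, FICD and SERP1) and 2 lower (CRELD2 and SYNPO), with a median of 0.057. Of the 14 with an ER stress element II, which include 3 members, 4 were higher, SDF2L1 among them, and 3 lower, with a median of 0.018. The amino acid response core was held by 288 measured genes, of which 41 were higher and 37 lower, with a median of 0.054 beside 0.020 for all genes. Over all genes 13.9% were higher and 15.5% lower, close to the shares among holders of this core.

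Over all genes the groups did not overlap for 41.6%, with RASv12 above for 19.7% and below for 21.9%, and among members for 10 above and 10 below of 37. Of the defining fibroblast genes, all 10 were above the bacterial controls on at least 1 array, with a summed intensity of 19359 to 21806 in control cells and 7916 to 9275 in RASv12 cells. In these bulk samples fewer cells of a type and less RNA per cell cannot be told apart. The sums of 7 epithelial genes (218 to 248 in control, 186 to 246 in RASv12 cells), 6 endothelial genes (103 to 129.9, and 87.7 to 159.7) and 6 leukocyte genes (36.8 to 64.1, and 50.6 to 108) were low beside them. EPCAM, CDH1, VWF, CDH5, KDR, PTPRC, CD14 and LYZ stayed within the bacterial controls on every array. Other genes of these 3 lists were called: KRT18, TIE1 and CSF1R higher, and KRT8, KRT19 and TEK lower. The means of CSF1R, 7.30 in control and 23.9 in RASv12 cells, both lay within the range of the bacterial controls and give no fold. The control mean of TIE1 and the RASv12 means of KRT8, KRT19 and TEK lay within that range too. TIE1 had a mean of 1.34 in control and 48.2 in RASv12 cells, and TEK of 78.6 and 26.4. On each array 48.6% to 54.1% of the probe sets were brighter than the bacterial controls, and 3 arrays per group limit the precision of every value.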

How the data were processed

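RNA of 6 WI-38 samples was amplified in 2 rounds and read on arrays holding 22283 Affymetrix probe sets. The authors deposited 1 table of linear signal intensity per probe set, made with MAS5 per the submitters' processing notes; its version is not given in the sources used here. The 2% trimmed mean was near 100.04 on all 6 arrays. Probe sets with 1 gene symbol (19065 of 22215, after 68 controls were left out) were named through RefSeq identifiers, 1043 had several symbols and 2107 none. Where a gene had several, the brightest by mean log2(intensity + 16) stood for it. Values were quantile normalized and fitted over all 11963 genes by limma 3.58.1 in R 4.3.3, and p-values were adjusted over all of them by the Benjamini-Hochberg method. The procedure was tested on simulated data. The alternatives were another pseudocount (1 or 64), other scalings, a filter on dim genes, other choices of probe set, a variance trend, a replicate block and leaving out each array. Folds for dim genes, paired differences between members and the ER stress element II were added after the data were seen, and SDF2L1 was chosen for printing then. Members and lists were chosen with earlier results of these data known. All members are described. Those named for the further lists are up to 3 called genes per direction with the largest moderated t. HSPA5, ATF4, XBP1, DDIT3, ASNS and up to 5 called members per role are given per array. The part of that rule on protein ends was not run.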

Additional observations from a re-analysis of the deposited data

How the results depend on the processing

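Of the 17 called members, 9 kept their call and direction in all 18 alternatives: SDF2L1, DNAJB9, MANF, EDEM1, TRIB3, PPP1R15A, ASNS, PSAT1 and PHGDH. Of the 20 members that did not pass, 7 passed in no alternative that included them, and 13 passed in at least 1. The count of 10 higher members was 6 with a pseudocount of 1, 18 with scaling to the hybridization controls, and 6 to 10 when 1 replicate was left out. The count of 7 lower members was 3 with that scaling and 5 to 8 when 1 replicate was left out. The same scaling moved the median of the chaperones from 0.086 to 0.45, of the degradation genes from -0.0069 to 0.31, of the stress effectors from 0.56 to 0.82 and of the amino acid enzymes from -0.33 to -0.039. The stress effector median was 0.42 with a pseudocount of 64 and 0.47 to 0.70 when 1 replicate was left out. The amino acid median was -0.69 without the dimmest 50% of genes, where 6 of 7 were tested, -0.15 with the mean of all probe sets, and -0.48 to -0.25 when 1 replicate was left out. The cause of these shifts was not tested.

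Samples of the 2 groups share replicate numbers, and the deviations of same-numbered samples correlated at -0.21, -0.047 and -0.064. Deviations from means of only 3 samples cannot decide whether same-numbered samples were handled together. With the replicate block 7 members were higher and 5 lower, and HSPA5, ERO1A, DDIT4, CRELD2 and EIF2AK3 were not called.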
